A study of Homo sapiens with 9 samples.

Results

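The red cell membrane skeleton and its anchors in the membrane were examined in K562, a human cell line from leukaemia that keeps erythroid features. The set was defined by name as 8 genes: ANK1, SPTB, EPB41, EPB42, SLC4A1, RHAG and the glycophorin genes GYPB and GYPC. Of these, 6 had a probe set assigned to 1 gene symbol and are described here, out of 18239 genes measured. GYPB and GYPC were not analysed here, so the values below hold for the skeleton, SLC4A1 and RHAG and for no glycophorin.

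K562 cells were transduced with 1 of 3 forms of CALR, the gene of calreticulin, a chaperone of the endoplasmic reticulum. The groups were the wild-type form, the Del52 form and the Ins5 form, with 3 arrays each, and the study's title places them in work on the unfolded protein response and oxidative stress. In all 3 groups the cells received viral supernatant in 4 rounds 12 h apart, stayed in culture for another 36 h and were purified with beads for NGFR, a surface marker. More than 90% carried NGFR 48 h after purification, and RNA came from 100000 cells per sample. Wild-type CALR is thus a transduced control, untransduced cells were not analysed here, and nothing in the labels says that the cells' own CALR was removed. The sources used here name no promoter for the constructs and do not say whether replicates came from separate transductions. The p-values therefore measure the spread between these samples, which may be technical. Because the samples are bulk RNA, fewer cells of a type and less RNA per cell cannot be told apart.

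Spectrin forms a mesh under the red cell membrane. Ankyrin, the product of ANK1, ties the beta chain of spectrin (SPTB) to band 3, the anion exchanger encoded by SLC4A1, and the product of EPB42 steadies that link. EPB41 encodes the protein that strengthens the junction of spectrin with actin and binds glycophorin C, and RHAG encodes the glycoprotein that carries the Rh antigens to the surface. Inherited defects of ANK1, SPTB, SLC4A1 and EPB42 cause hereditary spherocytosis, and those of EPB41 and SPTB cause elliptocytosis.

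The erythroid factor GATA1 binds words of the GATA type, and KLF1 binds CACCC-type words, so promoters of the members were searched for both. The promoter table used here, from RefSeq (GRCh38.p14), gave 6 entries of 300 bases, 250 before and 50 after the start, for SPTB, EPB41, EPB42 and RHAG. Promoters of ANK1 and SLC4A1 were not analysed here. The word AGATAA or its variants AGATAG or TGATAA or TGATAG, read on both strands, occurred in 4 of these 6 entries, in 1 or more for each of the 4 genes, against 25% of all 35116 promoters of that length. The word CCNCNCCC, also read on both strands, occurred in 6 of 6 entries, against 56.2% of all promoters, and its matches overlapped no GATA-type match in these entries. This word is wider than CACCC. Its matches in the EPB41 entries, such as CCCCGCCC and GGGAGGGG, held no CACCC on either strand. The bases G and C made up 42% to 73.7% of the 6 entries. The entries that hold a GATA-type word are printed 5′ to 3′, with that word in capitals.
SPTB promoter (chr14:64879858-64880157, minus strand): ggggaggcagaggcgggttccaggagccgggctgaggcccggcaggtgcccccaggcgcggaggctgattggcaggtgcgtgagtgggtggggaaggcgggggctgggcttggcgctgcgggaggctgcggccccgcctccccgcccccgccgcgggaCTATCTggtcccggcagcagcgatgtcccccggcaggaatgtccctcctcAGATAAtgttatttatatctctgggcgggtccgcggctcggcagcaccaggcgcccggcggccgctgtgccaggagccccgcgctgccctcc
EPB41 promoter (chr1:28886850-28887149, plus strand): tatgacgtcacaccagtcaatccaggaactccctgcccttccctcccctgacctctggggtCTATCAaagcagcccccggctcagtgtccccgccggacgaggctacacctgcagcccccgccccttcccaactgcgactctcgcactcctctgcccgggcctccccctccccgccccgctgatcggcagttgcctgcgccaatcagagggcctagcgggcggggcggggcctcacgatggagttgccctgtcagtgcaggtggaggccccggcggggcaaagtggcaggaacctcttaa
EPB42 promoter (chr15:43220969-43221268, minus strand): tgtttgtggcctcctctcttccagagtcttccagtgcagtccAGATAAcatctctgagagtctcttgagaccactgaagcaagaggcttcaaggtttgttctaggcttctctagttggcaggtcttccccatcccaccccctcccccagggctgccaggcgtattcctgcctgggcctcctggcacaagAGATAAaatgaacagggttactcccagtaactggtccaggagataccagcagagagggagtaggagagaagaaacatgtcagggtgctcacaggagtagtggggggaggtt
RHAG promoter (chr6:49636790-49637089, minus strand): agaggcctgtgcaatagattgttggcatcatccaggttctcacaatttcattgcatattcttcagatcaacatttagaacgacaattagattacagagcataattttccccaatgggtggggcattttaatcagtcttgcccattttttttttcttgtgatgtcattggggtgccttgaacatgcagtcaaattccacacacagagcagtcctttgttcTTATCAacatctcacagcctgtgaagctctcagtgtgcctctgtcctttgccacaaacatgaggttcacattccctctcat
Positions are counted in bases from the start, negative before it. In SPTB the GATA-type words lie at -92 to -87 and at -42 to -37, and in EPB42 at -208 to -203 and at -61 to -56. EPB41 holds 1 such word at -189 to -184 in its first entry, and RHAG holds 1 at -31 to -26. A match describes the letters only and does not show that a factor binds there.

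Values are the authors' log2 expression values, so a difference of 1 is a doubling. Array medians lay between 3.73 and 3.76. The 23 antigenomic control probe sets, which are designed to match no human sequence, spanned 1.53 to 6.52. ANK1, EPB41 and RHAG read above that span, whereas SPTB, SLC4A1 and EPB42 read within it and may hold little specific signal. Of the 11 measured markers of K562, 10 read above the span, and of the markers of other cells 0 of 10 megakaryocyte, 1 of 11 granulocyte and monocyte, 0 of 10 lymphoid and 3 of 11 fibroblast and epithelial genes did. The labels could not be checked by the transduced gene: CALR read 0.15 lower in Del52 and 0.16 lower in Ins5 than in wild type, and NGFR 0.05 and 0.06 higher, none of which passed the limma test. The first principal component, the main axis along which the 9 arrays differed, held 70.5% of the variance, with wild-type replicates 2 and 3 at its ends. Del52 replicate 1 lay apart on the second component, which held 10.0%.

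Differences between the CALR forms were tested for all 18239 genes with limma and Benjamini-Hochberg adjustment. No member passed at an adjusted p under 0.05, and neither did any other gene: the share called was 0% with Del52, Ins5 or both mutants set against wild type, and with Del52 set against Ins5. At an unadjusted p under 0.05, 1 of 6 members was called in Del52 against wild type (7.05% of all genes), 0 in Ins5 against wild type (7.41%), 0 in Del52 against Ins5 (5.77%) and 1 in both mutants against wild type (7.97%). The single member called was ANK1 each time. With array weights from limma, whose estimate stopped before it converged and gave wild-type replicate 1 a weight of 67.0, 3 members passed in Del52 against wild type (ANK1, SPTB and EPB42), among 3190 of all genes. With weights estimated gene by gene, chosen after seeing the data, 0 members and 0 genes passed.

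ANK1, the ankyrin of red cells, had the lowest p of the members in the comparisons with wild type, and SPTB in Del52 against Ins5. It read 7.52, 7.21 and 7.25 in the Del52 arrays, 7.11, 7.32 and 7.35 in the Ins5 arrays and 7.04, 7.14 and 7.07 in the wild-type arrays. All 3 Del52 arrays lay above all 3 wild-type arrays, while the lowest Ins5 array fell among the wild-type ones. Del52 was higher than wild type by 0.24 ± 0.10 (SE, n = 3 each), a fold of 1.18 (95% interval 1.01 to 1.38, not adjusted for the number of genes), with limma adjusted p = 0.667. ANK1 was the 1 member of 6 with all Del52 arrays on the upper side, where 6.23% of all genes were, and no member had them all on the lower side, where 4.36% were. Ins5 was higher than wild type by 0.18 ± 0.10 (95% interval -0.04 to 0.40, limma adjusted p = 0.753), and Del52 differed from Ins5 by 0.06 (95% interval -0.16 to 0.29). Both mutants together were higher by 0.21 ± 0.08 (95% interval 0.02 to 0.40, limma adjusted p = 0.593). Without Del52 replicate 1 the Del52 difference was 0.15. Del52 replicate 1 was the highest array for ANK1, SPTB and EPB42, 3 of the 6 members.

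**Figure D1:**
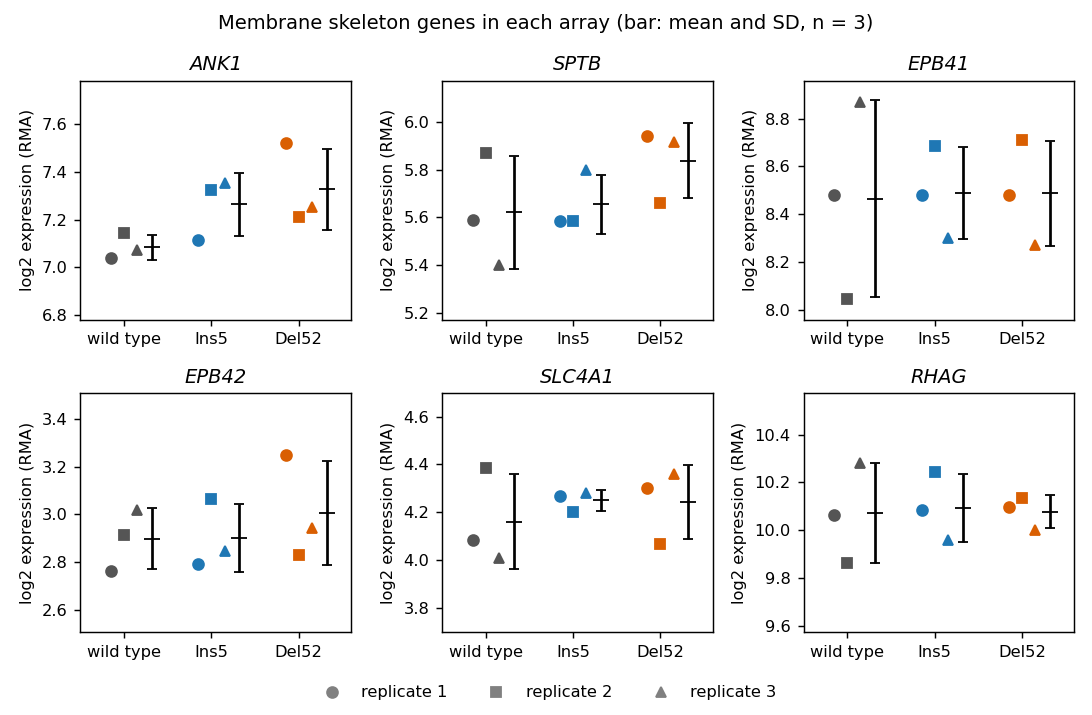
Log2 expression of each of the 6 members in each of the 9 arrays, one panel per gene, with a bar at the group mean. ANK1 is the only member whose Del52 arrays, 7.21 to 7.52, all sit above its wild-type arrays, 7.04 to 7.14.

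ANK1 has 7 probe sets, of which 3 have the suffix a_at, which marks probes shared by transcripts of 1 gene, 1 has s_at, probes shared by several transcripts or genes, and 3 have x_at, some of whose probes may cross-hybridise. In Del52 against wild type all 7 were higher, by 0.08 to 0.24 with a median of 0.22. In 6 of 7, every Del52 array lay above every wild-type array, against 6.01% of all probe sets, and 5 of 7 had an unadjusted limma p under 0.05, against 6.87%. None passed over all probe sets, of which 0% did, and the lowest adjusted p was 0.634. In Ins5 against wild type the 7 probe sets were again all higher, by 0.04 to 0.18. Probe sets of 1 gene share transcripts and arrays and are not replicates. Over the 9 arrays 5 of the 6 other sets followed the main set with r of 0.86 to 0.88, and the dimmest had r of 0.11.

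**Figure D2:**
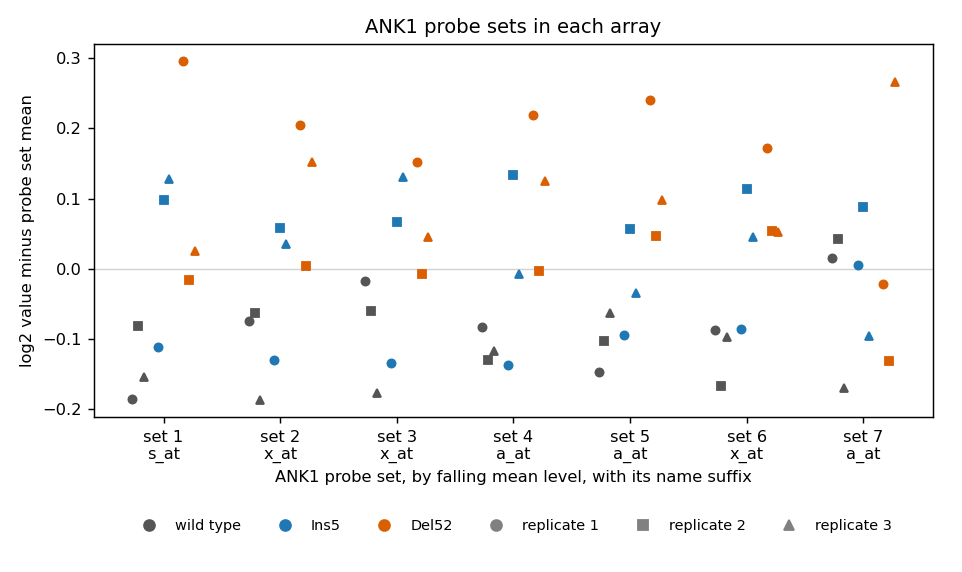
Log2 value minus the mean of the probe set for the 7 ANK1 probe sets, ordered by falling mean level, with 1 point per array. In 6 of the 7 sets all Del52 points lie above all wild-type points.

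SPTB, the beta chain of spectrin, read 5.94, 5.66 and 5.92 in the Del52 arrays, 5.58, 5.59 and 5.80 in the Ins5 arrays and 5.59, 5.87 and 5.40 in the wild-type arrays. The wild-type arrays covered 1.39-fold and reached into the range of Del52, so the groups overlapped. Del52 was higher than wild type by 0.22 ± 0.13 (95% interval -0.09 to 0.52, limma adjusted p = 0.825) and than Ins5 by 0.18 (limma adjusted p = 0.998). Ins5 differed from wild type by 0.03. The Del52 difference was 0.34 without wild-type replicate 2 and 0.11 without wild-type replicate 3. The other SPTB probe sets followed the main one with r of -0.69 to 0.49 over 9 arrays, so they do not give 1 picture of the gene.

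EPB41, the protein at the spectrin-actin junction, read 8.48, 8.71 and 8.27 in the Del52 arrays, 8.48, 8.69 and 8.30 in the Ins5 arrays and 8.48, 8.05 and 8.87 in the wild-type arrays. Wild type held both the lowest and the highest array, a spread of 1.77-fold, while the group means lay between 8.47 and 8.49. Del52 differed from wild type by 0.02 ± 0.21 (95% interval -0.47 to 0.51, limma adjusted p = 1.00), an interval of fold from 0.723 to 1.43. Of 5 EPB41 probe sets, 4 read lower in Del52 and in Ins5 than in wild type, and their r with the main set ran from -0.07 to 0.79. Those 4 had means of 2.29 to 4.44, within the antigenomic span, against 8.48 for the main set, and may hold little specific signal. In Del52 1 of them differed by only -0.00025.

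The band 3 gene SLC4A1 read 4.30, 4.07 and 4.36 in the Del52 arrays, 4.27, 4.20 and 4.28 in the Ins5 arrays and 4.08, 4.38 and 4.01 in the wild-type arrays. The Ins5 arrays fell within 0.08 of each other, inside the range of wild type, and no group stood clear of another. The differences from wild type were 0.08 (95% interval -0.17 to 0.34) in Del52 and 0.09 (95% interval -0.17 to 0.35) in Ins5. They became 0.20 and 0.20 without wild-type replicate 2, and 0.01 and 0.01 without wild-type replicate 3. Of 4 SLC4A1 probe sets, 4 read higher in Del52 than in wild type (0.002 to 0.08). In Ins5 3 read higher and 1 lower (-0.09 to 0.09). The others followed the main set with r of 0.13 to 0.55 over 9 arrays. EPB42, whose product steadies the link of ankyrin to band 3, was the dimmest member at 3.25, 2.83 and 2.94 in the Del52 arrays, 2.79, 3.07 and 2.85 in the Ins5 arrays and 2.76, 2.91 and 3.02 in the wild-type arrays. Its groups overlapped, Del52 differed from wild type by 0.11 ± 0.12 (95% interval -0.18 to 0.40), and it has 1 probe set.

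RHAG, of the Rh complex, read 10.09, 10.14 and 10.00 in the Del52 arrays, 10.08, 10.24 and 9.96 in the Ins5 arrays and 10.06, 9.86 and 10.28 in the wild-type arrays. All 3 groups overlapped and their means were 10.08, 10.09 and 10.07. Del52 differed from wild type by 0.01 ± 0.11 (95% interval -0.25 to 0.27) and Ins5 by 0.02 (95% interval -0.24 to 0.29). Its pair of probe sets had r of 0.92 over the 9 arrays, and the other set differed from wild type by -0.02 in Del52 and 0.01 in Ins5.

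Over the 6 members, the median difference was 0.10 in Del52 against wild type, 0.03 in Ins5 against wild type, 0.03 in Del52 against Ins5 and 0.07 in both mutants against wild type, beside medians of 0.01, 0.02, -0.01 and 0.02 over all genes. All 6 point estimates were above 0 in each comparison of mutants with wild type, where 54.6% (Del52), 59.6% (Ins5) and 57.9% (both) of all genes were, but with each array centred on its median 5, 3 and 5 of 6 were, beside 49.9%, 43.7% and 46.5% of all genes. With quantile normalization 6, 5 and 6 of 6 were, beside 53.3%, 52.7% and 53.2% of all genes. With the mean of all probe sets of a gene, EPB41 fell below 0 in each of these comparisons and RHAG in Del52. The EPB41 mean includes sets that read within the antigenomic span. The Del52 median was 0.04 without Del52 replicate 1 or wild-type replicate 1, 0.18 without Del52 replicate 2 and 0.20 without both wild-type replicates 2 and 3. With 1 array left out at a time, the median ran from 0.01 to 0.10 in Ins5, from -0.02 (without Del52 replicate 1) to 0.10 in Del52 against Ins5, and from 0.04 to 0.13 in both mutants. Beyond ANK1 in Del52, no member had groups that did not overlap. The shares of all genes separated upward and downward were 8.16% and 3.3% in Ins5 against wild type and 3.81% and 6.28% in Del52 against Ins5. The Del52 and Ins5 comparisons share the wild-type arrays.

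**Figure D3:**
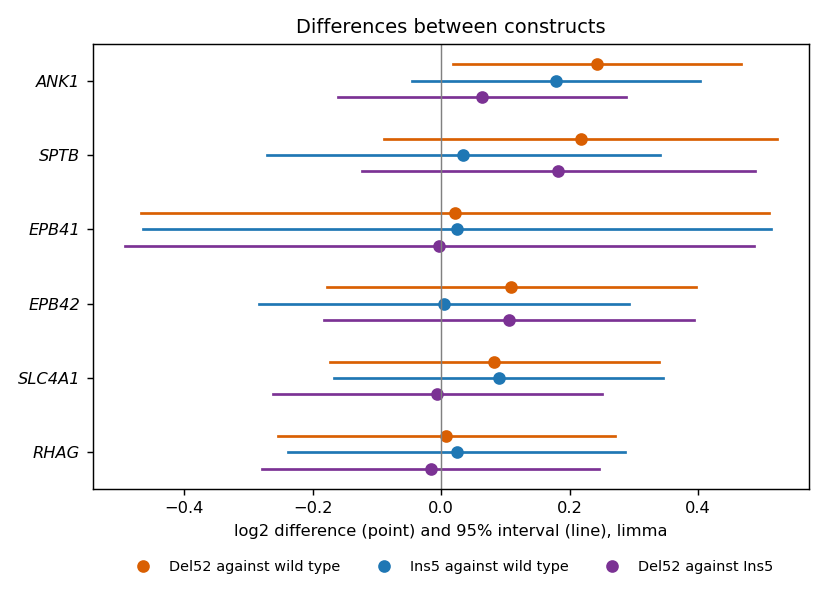
Log2 difference (point) and 95% limma interval (line) of each of the 6 members for Del52 or Ins5 against wild type and for Del52 against Ins5. The interval of ANK1 in Del52 against wild type, 0.02 to 0.47, is the only one clear of 0, and no member passes after adjustment.

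Some members also varied together from array to array, within the CALR groups. Of 15 pairs, 3 were correlated over the 9 arrays by exact two-sided permutation tests over 362880 pairings with Benjamini-Hochberg adjustment over the pairs. These 3 had r of at least 0.83 in size, as 6.88% of the pairs of all genes did. EPB41 and RHAG rose and fell together (r = 0.97, rho = 0.91, permutation p = 9.92e-05, adjusted p = 0.00149), and r was 0.91 without the 2 arrays farthest from the median of EPB41. EPB41 and SLC4A1 moved in opposite directions (r = -0.86, rho = -0.95, permutation p = 0.00328, adjusted p = 0.0246), with r = -0.71 without the 2 farthest arrays. SPTB and SLC4A1 rose together (r = 0.83, rho = 0.77, permutation p = 0.00836, adjusted p = 0.0418), with r = 0.80 without the 2 farthest arrays, but by rank this pair did not pass (permutation adjusted p = 0.0706). With the group means removed r was 0.97, -0.92 and 0.92. Without wild-type replicates 2 and 3 no pair passed, the adjusted permutation p of EPB41 with RHAG being 0.0670. With the mean of all probe sets EPB41 and SLC4A1 had r = -0.52 (permutation adjusted p = 0.272), so that relation passed for the main probe sets and not for the mean. With that mean EPB41 and RHAG had r = 0.83 (permutation adjusted p = 0.0372). SPTB and SLC4A1 had r = 0.96 with it (permutation adjusted p = 0.000413). All probe sets of SPTB (means 2.40 to 5.70) and of SLC4A1 (means 2.93 to 4.22) read within the antigenomic span. The relation of these genes may therefore hold little specific signal. ANK1 and EPB42 had r = 0.69 (permutation adjusted p = 0.0764), which fell to 0.10 without the 2 arrays farthest from the median of ANK1. It was 0.87 without wild-type replicates 2 and 3 (permutation adjusted p = 0.0670) and 0.78 with the group means removed.

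Each member was set against the first principal component, with 7 relations in the family. EPB41 had r = -0.99 and RHAG r = -0.95 (exact permutation adjusted p = 0.000463 each), SLC4A1 r = 0.88 (0.00428) and SPTB r = 0.84 (0.00934). By rank SPTB did not pass (rho = 0.73, exact permutation adjusted p = 0.0545). ANK1, with r = 0.26, and EPB42, with r = -0.09, did not pass (exact permutation adjusted p = 0.587 and 0.823). Without the 2 arrays farthest out the values were -0.97, -0.88, 0.76 and 0.74 for EPB41, RHAG, SLC4A1 and SPTB. Thus 4 of 6 members had an r beyond 0.8 in size, as 28.0% of all genes did. The actin control, the difference between its 3-prime and 5-prime probe sets, which reads RNA integrity and labelling, moved along the same axis with r = -0.74 (exact permutation adjusted p = 0.0307) but did not pass by rank (rho = -0.60, permutation adjusted p = 0.136), and its part in the members' variation was not tested.

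**Figure D4:**
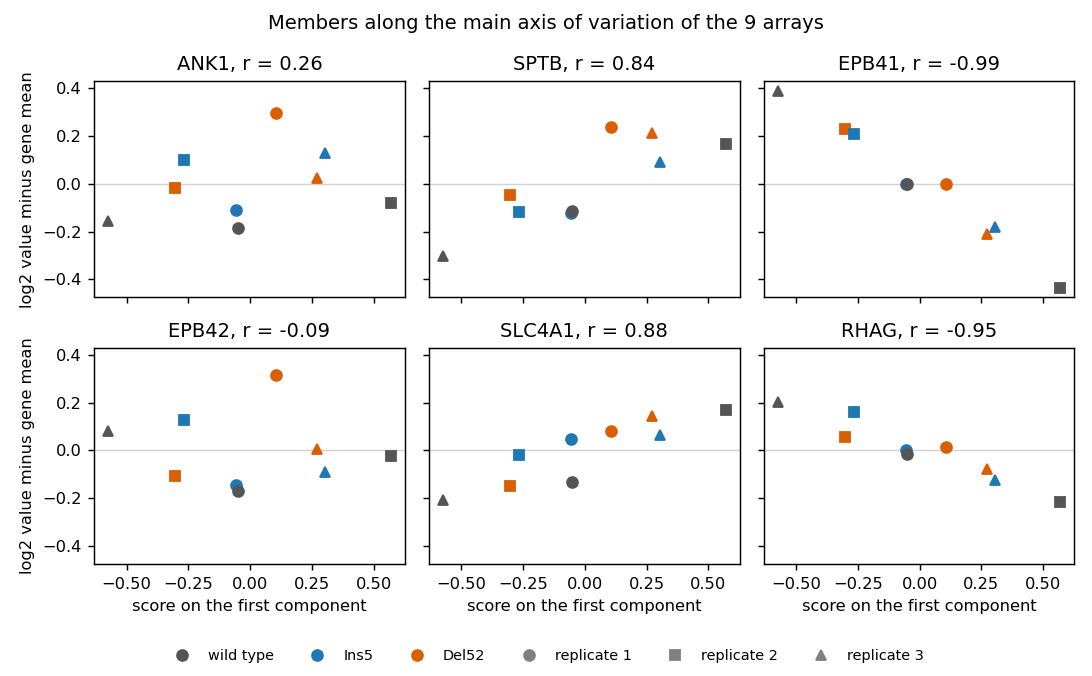
Log2 value minus the gene's mean for each member against the score of each array on the first principal component. EPB41 and RHAG fall along the axis and SLC4A1 and SPTB rise, with wild-type replicates 2 and 3 at its ends, while ANK1 and EPB42 have r of 0.26 and -0.09.

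Other genes of the red cell membrane were read from lists, and none of their measured genes passed in any comparison. Of the partners in the skeleton 6 of 8 read above the antigenomic span, and 9 of 14 glycoproteins did. So did 5 of 11 transporters, 4 of 12 relatives of the members and 10 of 15 erythroid regulators. The others, among them ADD2, BCAM, AQP1, SLC4A3, ANK2, BCL11A and LDB1, read within the span and may hold little specific signal. Of 8 measured partners in the skeleton, 4 read higher and 4 lower in Del52 than in wild type (median -0.01), where 54.6% of all genes read higher. ADD2, beta adducin, which caps actin at the junctions, had the smallest p, at 0.30 ± 0.15 (limma adjusted p = 0.755). In Ins5 against wild type 7 of the 8 were higher (median 0.07), beside 59.6% of all genes, with ADD1, alpha adducin, at 0.14. With each array centred on its median, 3 of 8 were higher in Del52 and 5 of 8 in Ins5, and with quantile normalization 5 and 7, the Del52 median turning to 0.02. The shares of all genes higher were 49.9% and 43.7% with centring, and 53.3% and 52.7% with quantile normalization. Of 14 measured membrane glycoproteins, 10 were higher in Del52 (median 0.08) and 13 in Ins5 (median 0.08), beside 54.6% and 59.6% of all genes. CD59, which guards cells against complement, differed by 0.14 in Del52, and CD47, a signal against engulfment, by 0.20 in Ins5. Both had separated groups, as 6.23% (Del52) and 8.16% (Ins5) of all genes had upward. Of the other genes named from the lists of the red cell membrane, ADD2, ANK2 and BCL11A were separated upward in Del52. In Ins5 these were ADD1, ANK2, BCL11A, BCAM, SLC4A3 and SPTBN1. BCAM was separated downward in Del52 against wild type, where 4.36% of all genes were. In Del52 against Ins5, BCAM and SPTBN1 were separated downward, where 6.28% of all genes were. BCAM, the Lutheran glycoprotein, had the smallest p in Del52 against Ins5, at -0.19.

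Of 11 measured transporters and channels of the membrane, 10 were higher in Del52 (median 0.12) and 6 in Ins5 (median 0.05). Among all genes 54.6% were higher in Del52 and 59.6% in Ins5. The water channel AQP1 averaged 4.08 ± 0.53 with Del52, 3.51 ± 0.45 with Ins5 and 3.56 ± 0.25 with the wild-type form (SD over 3 arrays), a difference of 0.52 ± 0.31 (SE) between Del52 and wild type with limma adjusted p = 0.818. Del52 and Ins5 differed by 0.57 in AQP1. ATP2B4, a calcium pump, had the smallest p in Ins5 at 0.12. Of 12 measured non-erythroid relatives of the members, 7 were higher in Del52 (58.3%, median 0.06) and 11 in Ins5 (91.7%, median 0.09), beside the same shares. Their smallest p values belonged to the anion exchanger SLC4A3 in Del52 (0.16), to ANK2, the ankyrin of heart and brain, in Ins5 (0.11), and to SPTBN1, a beta spectrin of other tissues, in Del52 against Ins5 (-0.33). Of 15 measured erythroid regulators, 10 were higher in Del52 (66.7%, median 0.11) and 11 in Ins5 (73.3%, median 0.06), again beside 54.6% and 59.6% of all genes. BCL11A, a repressor of fetal globin, had their smallest p in both, with differences of 0.22 and 0.15, and it passed in neither. LDB1, a cofactor of GATA1, had their smallest p in Del52 against Ins5, at 0.13. Centring on the median left the sign of the medians of these last 4 lists as it was, as did quantile normalization, and their counts moved by at most 2 genes.

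**Figure D5:**
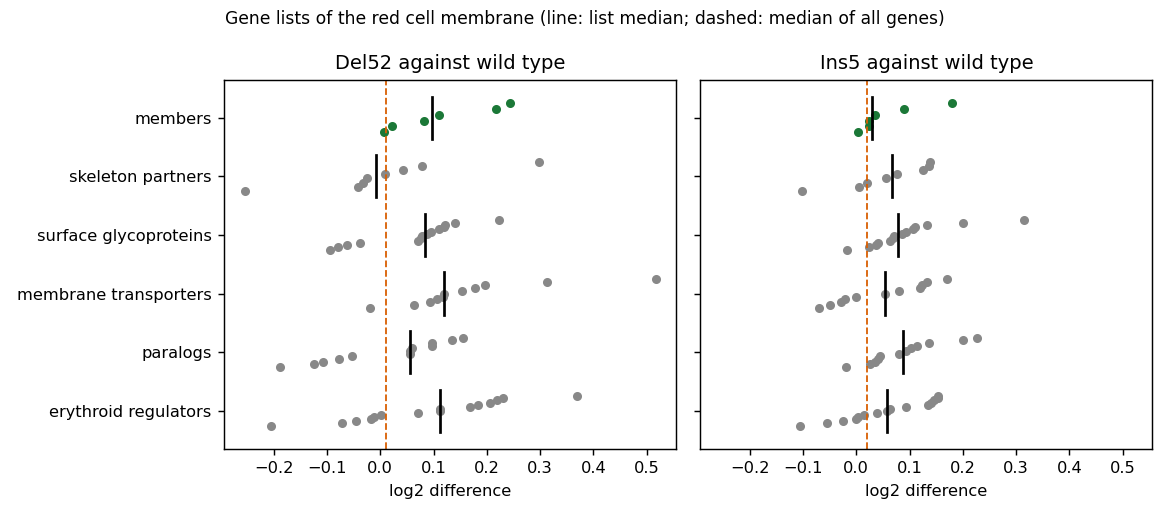
Log2 differences of the members and of the related lists for Del52 and for Ins5, each against wild type, 1 point per gene, with a line at each list's median and a dashed line at the median of all genes. The medians lie between -0.01 and 0.12, and no gene passes the limma test. The members' Ins5 median of 0.03 turns to -0.00 with arrays centred on their median and to 0.05 with quantile normalization.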

How the data were processed

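The 9 samples were measured on Affymetrix arrays. The authors deposited 1 log2 expression value per probe set and array. Partek and RMA are named per the submitters' processing notes, without versions, and RMA subtracts background, equalises arrays and condenses probes into 1 value per probe set. The log base was read from the values, whose highest is 12.2. All 9 columns matched a sample.

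Of 49386 probe sets, 93 were controls, 45253 had 1 gene symbol, 1327 several and 2713 none. Only those with 1 symbol were used, and the set with the highest mean over the arrays stood for its gene. limma 3.58.1 in R 4.3.3 fitted all 9 arrays with a mean per group (6 residual degrees of freedom), with Benjamini-Hochberg adjustment over 18239 genes and a threshold of 0.05. All p-values are two-sided. The fit was tested on simulated data. Correlations used Python 3.11.15 and numpy 2.4.6. Arrays give no read depth, so their number limits the precision.

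The members and the gene lists were chosen with earlier results of these data known. Named genes were the members, CALR and NGFR, from each related list every passing gene and the one with the smallest p in each comparison, and the 5 other genes most like the members. The smallest-p genes of the cell type marker lists are not named. The lists held 120 entries in 10 lists, of which 108 were measured. Alternatives were other normalization, centring, filters, probe sets, variance models, weights, samples, thresholds and covariates.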

Additional observations from a re-analysis of the deposited data

How the results depend on the processing

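The count of members past the threshold stayed at 0 under every alternative but the default array weights, whose estimate stopped before convergence. With those weights 3190, 4017 and 6232 genes passed in Del52, Ins5 and both mutants against wild type, with 3 members in Del52, 4 in both mutants, and 20, 21 and 36 related genes, and the members' medians were 0.23 (Del52) and 0.17 (both). With gene-by-gene weights, added after seeing the data, no gene passed, and these medians were 0.21 and 0.16. With the first principal component as a covariate 4, 7 and 68 genes passed, none of them a member. Without wild-type replicates 2 and 3, which leaves 1 wild-type array assumed to vary like the others, the medians were 0.20 and 0.16, and 0 of 15 pairs of members were correlated. Leaving out 1 array at a time, 0 genes passed, and the Del52 median ran from 0.0394 to 0.18, with ANK1 from 0.15 to 0.30. Over 18 settings other than array weights ANK1 had adjusted p of 0.218 to 1.

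Small differences changed sign. Quantile normalization gave -0.0226 for EPB42 (Ins5) and 0.0187 for SLC4A1 (Del52 against Ins5). Centring on the median gave RHAG -0.00282 (Del52), -0.00961 (Ins5), -0.00621 (both) and 0.00679 (Del52 against Ins5), EPB41 -0.00939 (Ins5) and 0.0206 (Del52 against Ins5), EPB42 -0.0300 (Ins5) and SLC4A1 0.0169 (Del52 against Ins5). The mean of all probe sets gave EPB41 -0.0811 (Del52), -0.16 (Ins5), -0.12 (both) and 0.0792 (Del52 against Ins5), RHAG -0.0049 (Del52) and SLC4A1 0.0235 (Del52 against Ins5). For EPB41 that mean includes 4 sets that read within the antigenomic span. The default and the gene-by-gene weights gave -0.0135 and -0.0146 for EPB41 (Del52) and 0.0149 and 0.014 for SLC4A1 (Del52 against Ins5), and the gene-by-gene weights gave EPB41 -2.98e-04 (both). The covariate gave EPB41 0.0188 (Del52 against Ins5). The cause was not tested.

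Leaving out 1 array, ranges crossed 0 in Del52, Ins5, Del52 against Ins5 and both mutants, in that order, for EPB41 (-0.19 to 0.22, -0.19 to 0.23, -0.11 to 0.11, -0.19 to 0.22) and EPB42 (-0.0116 to 0.20, -0.0779 to 0.0635, -0.0154 to 0.19, -0.0101 to 0.12) and RHAG (-0.0956 to 0.11, -0.079 to 0.13, -0.0847 to 0.0574, -0.0873 to 0.12), in Del52 against Ins5 for ANK1 (-0.0336 to 0.12) and SLC4A1 (-0.0653 to 0.081), and in Ins5 for SPTB (-0.0752 to 0.16).

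The replicate numbers did not pair the arrays in all groups, and 0 of 9 arrays matched their own number best. Deviations of same-numbered Del52 and Ins5 arrays correlated at 0.64 (number 2), 0.57 (number 3) and -0.56 (number 1). Those of wild type with a mutant ran from -0.33 to -0.92. On the first component wild-type replicate 3 (-0.57) lay with Del52 and Ins5 replicates 2 (-0.30 and -0.27). Wild-type replicate 2 (0.57) lay with their replicates 3 (0.27 and 0.30). A block by number cannot show whether arrays of different numbers belong together, and this was not tested. With the replicate number as a block 0 genes passed, and ANK1 in Del52 stayed at 0.24 with adjusted p = 1.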

Other observations

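Among genes above the median level, the 5 outside the set whose values were most like the mean of the members over the 9 arrays were PDZD11 (r = 0.98), PITX1 (r = 0.97), GINS1 (r = 0.97), VCX (r = 0.97) and PASK (r = 0.96). They were chosen for that likeness, and the arrays are shared, so these values are a description. VCX read 8.04, 7.51 and 7.63 in Del52, 7.37, 7.87 and 7.63 in Ins5, and 7.34, 7.37 and 7.50 in wild type. Its highest array was Del52 replicate 1, as it was for ANK1, SPTB and EPB42.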
